A study of Mus musculus with 30 samples.

Results

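Chemokines are small secreted proteins that guide cells along gradients, and 9 of their genes were followed here in the hippocampus of male BALB/c mice. The genes were Ccl2, Ccl3, Ccl4, Ccl12, Cxcl10, Cxcl12, Cxcl14, Cxcl16 and Cx3cl1, which in brain are known as products of microglia, astrocytes, vessels and neurons. They were taken by symbol from the 21412 genes of the normalized count table, and all 9 symbols had a row there. The genes were chosen by name with earlier results of these data known, and the only measured value in the rule is the reads that a gene needed to enter that table, whose genes had at least 11 reads summed over the 30 libraries, and the members nearest to that limit were Ccl2 with 50 reads and Ccl4 with 74 reads.

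Hippocampal RNA was sequenced from 6 groups of 5 mice, with 1 library per mouse. The Ctr group received unspiked feed, the LD group feed with 0.28 mg methylmercury (MeHg) per kg and the HD group feed with 5 mg MeHg per kg, for 11 weeks from shortly after their arrival at 2 to 3 weeks of age. The other 3 groups, Se_Ctr, Se_LD and Se_HD, are labelled as having had selenium together with no mercury, a low dose or a high dose of it. The series title names the selenium compound as selenium-methionine, and the selenium dose, the mercury dose in feed and the ages of these 3 groups are not given in the sources used here. All mice were males of the inbred BALB/c strain.

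Chemokines are grouped by the spacing of their N-terminal cysteines into CC, CXC and CX3C proteins, and they act through receptors coupled to inhibitory G proteins. Ccl2 and Ccl12 attract monocytes through the receptor Ccr2, Ccl3 and Ccl4 attract macrophages and T cells, and Cxcl10 is an interferon-induced ligand of Cxcr3. Cxcl12 holds cells in place and guides migrating neurons through Cxcr4, while Cxcl16 and Cx3cl1 are made as membrane-bound proteins that proteases can release, and Cx3cl1 on neurons signals to Cx3cr1 on microglia.

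The coding sequences below show the feature by which the family is divided. They are given for 8 of the 9 members. Each is a stretch of 30 bases around the codons of the cysteine pair, with those codons in capitals, read 5′ to 3′ on the coding strand from GENCODE vM1 transcripts (build NCBIM37). The pair is adjacent in the CC members shown, is separated by 1 codon in the CXC members and by 3 codons in Cx3cl1.
Ccl2: gccccactcaccTGCTGCtactcattcacc
Ccl4: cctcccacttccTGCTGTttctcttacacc
Ccl12: accccagtcacgTGCTGTtataatgttgtt
Cxcl10: aggacggtccgcTGCaacTGCatccatatc
Cxcl12: ctgagctaccgaTGCcccTGCcggttcttc
Cxcl14: gacgggtccaagTGTaagTGTtcccggaag
Cxcl16: gtcgctggaagtTGTtctTGTgatcgtacc
Cx3cl1: ggcatgacgaaaTGCgaaatcatgTGCgac

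The stretch lies within exon 2 in each gene shown other than Cxcl14, where it spans the junction of exons 1 and 2. The coding sequence holds between 92 codons (Ccl3 and Ccl4) and 148 codons (Ccl2) in the CC genes. It is far longer in Cxcl16, with 246 codons, and in Cx3cl1, with 395 codons, which both encode a membrane-spanning part. The 4 CC genes and Cxcl16 lie on chromosome 11 of NCBIM37. Ccl2 (chr11:81849073-81850955, plus strand) is a near neighbour of Ccl12 (chr11:81915347-81916902, plus strand), and Ccl3 (chr11:83461346-83462857, minus strand) of Ccl4 (chr11:83476086-83478185, plus strand), whereas Cxcl16 (chr11:70267485-70273486, minus strand) stands apart. The others are Cxcl10 (chr5:92775664-92777915, minus strand), Cxcl12 (chr6:117118553-117131385, plus strand), Cxcl14 (chr13:56390008-56397912, minus strand) and Cx3cl1 (chr8:97295909-97306323, plus strand). No stretch of 75 bases, the read length, was shared between a member and any other protein-coding gene. Exons of Cxcl10 overlap those of Art3 on the opposite strand by 133 bases, and exons of Cxcl16 overlap those of Zmynd15 on the opposite strand by 552 bases. The strand setting of the counting is not given in the sources used here.

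Among mice outside the HD group the members fell into separate tiers of expression. Levels between genes are compared here as the mean normalized count per kilobase of exon over the 25 libraries without HD, where a normalized count is a gene's reads divided by a size factor that puts libraries on 1 scale. Cx3cl1 had the highest level, 895 ± 98.8 per kb (SD, n = 25), followed by Cxcl14 at 193 ± 23.4 and Cxcl12 at 76.9 ± 8.49. These 3 levels did not overlap within their SD. Cxcl16 came next at 3.79 ± 1.51 per kb. The other 5 genes lay lower, with Ccl12 at 2.45 ± 2.16, Ccl3 at 1.78 ± 1.47, Cxcl10 at 0.944 ± 0.814, Ccl4 at 0.473 ± 0.718 and Ccl2 at 0.291 ± 0.490 per kb. Neighbours in this lower part of the order differed by less than the larger of their SDs, and these means rest on 7 reads for Ccl2 to 37 reads for Cxcl10 over all 25 libraries. In 18 of the 25 libraries Ccl2 had no read, and Ccl4 had none in 17.

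Group differences were tested with limma on log2(normalized count + 1) for every gene whose normalized counts summed to 10 or more in the libraries of the fit, as an F test over 3 groups followed by the contrast. A gene is called when both have an unadjusted p under 0.05, and p-values were adjusted by the Benjamini-Hochberg method across every gene in the fit. The hippocampal label was checked by 7 markers of excitatory neurons, of which Prox1, a marker of dentate granule cells, had 825 ± 276 and Fibcd1, a marker of CA1 neurons, 757 ± 99.1 normalized counts in Ctr mice (SD, n = 5). The sum of 4 thalamus markers, which dissection can bring in, was between 649 and 1408 normalized counts in 27 libraries, and stood apart in LD mouse 5 (2581) and in Se_LD mice 1 (2418) and 4 (2481), and among HD mice it was highest in mouse 5 (1408). Reads on genes were between 5768208 and 11510521 per library, with the lowest median in Ctr (7119788) and the highest in HD (10159514). Summed markers of choroid plexus, a tissue beside the hippocampus, ranged from 313 to 37554 normalized counts over the 30 libraries and from 7016 to 29486 in HD mice. HD mice 2 and 5 stood apart from the other HD mice in several members, so the members' HD results and the list counts are also given without them. The p-values measure the spread between these mice.

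By limma mRNA of most of the inflammatory chemokines was called higher in HD than in Ctr mice, while the 3 abundant ones were not called. The calls of Ccl12, Cxcl10 and Cxcl16 depended on HD mice 2 and 5, as given below. Of the 9 members 5 were called in HD against Ctr mice, all of them higher, namely Ccl3, Ccl4, Ccl12, Cxcl10 and Cxcl16. Among all 20031 genes tested 5.09% were called and 3.36% were called higher. At an adjusted p under 0.05 Ccl3 and Ccl4 passed, where 0.130% of all genes did. Ccl2 passed the F test but missed the contrast, and Cxcl12, Cxcl14 and Cx3cl1 were not called. The median difference over all genes tested was 0.0067 on the log2 scale. Ccl2 and Ccl4 entered this test only through the HD group, since their normalized counts summed to 4.11 and 1.24 over the 10 Ctr and LD libraries, so they were tested for that reason alone and a call of theirs is not independent of the filter.

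Ccl3 and Ccl4 encode the macrophage inflammatory proteins, which microglia are known to release early in injury. Ccl3 had 14.8, 23.7, 2.62, 8.84 and 50.8 normalized counts in HD mice 1 to 5. In Ctr mice it had 0, 1.70, 0, 0 and 3.84, and in LD mice 2.09, 1.29, 0, 1.98 and 0. Of the HD mice 4 of 5 lay above every Ctr mouse, and HD mouse 3 lay within the Ctr range. The difference between HD and Ctr was 3.15 on the log2 scale (SE 0.63, limma adjusted p = 0.0497). In reads it was 115 in HD against 4 in Ctr, a ratio of 21.4 with a 95% counting interval from 8.15 to 80.0, which covers counting error only. HD mouse 5 held 61 of the 115 reads and Ctr mouse 5 held 3 of the 4, so the ratio depends on single mice. The exact two-sided permutation test of 5 mice against 5 gave p = 0.0159, where 0.00794 is the smallest p possible.

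Ccl4 had 6.73, 15.5, 0.872, 5.63 and 28.3 normalized counts in HD mice 1 to 5. It had no read in any Ctr mouse and in LD mice it had 1.24 in mouse 5 and no read in the other 4 mice. All 5 HD mice therefore lay above all 5 Ctr mice, which was the case for 0.978% of all genes tested and among the members for Ccl4 alone, and nothing is read from that share because Ccl4 was tested only through its HD reads. The difference was 3.10 (SE 0.56, limma adjusted p = 0.0240), and the exact permutation p was 0.00794, the smallest possible. The 66 reads in HD against 0 in Ctr correspond to an at least 16.4-fold higher level, with the Ctr group set at the limit of 3 reads over the group (0.724 normalized counts). HD mouse 5 alone held 34 of the 66 reads, so this limit depends on 1 mouse.

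Ccl2 and Ccl12 are the monocyte-attracting CC members. Ccl12 had 4.04, 139, 0, 4.02 and 27.5 normalized counts in HD mice 1 to 5, against 0, 0, 1.89, 2.25 and 1.28 in Ctr mice. It was highest in HD mouse 2 and had no read in HD mouse 3. The difference was 2.44 (SE 0.88, p = 0.0120, limma adjusted p = 0.391), and the exact permutation test gave p = 0.0952. On whole reads the difference of Ccl12 was 4.75 by edgeR and 4.95 by DESeq2, and with a pseudocount of 10 it was 1.21. Ccl2 had 2.69, 26.1, 0, 0.804 and 6.67 normalized counts in the HD mice, against 0, 1.70, 0, 1.13 and 1.28 in Ctr mice, and no read in LD mice. HD mice 1, 2 and 5 exceeded every Ctr mouse, and the others lay within the Ctr range. The difference from Ctr was 1.34 (SE 0.65, p = 0.0511, limma adjusted p = 0.604), and the exact permutation p was 0.175. On whole reads it was 3.13 by edgeR and 3.26 by DESeq2, and Ccl2 was called by both.

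Cxcl10, the interferon-induced member, had 0, 103, 1.74, 3.21 and 23.3 normalized counts in HD mice 1 to 5. In Ctr mice it had 0, 0, 0.945, 2.25 and 1.28. Only HD mice 2, 4 and 5 were above every Ctr mouse. The difference was 2.20 (SE 0.88, p = 0.0210, limma adjusted p = 0.469), with an exact permutation p of 0.127. On whole reads it was 4.63 by edgeR and 4.82 by DESeq2, and with a pseudocount of 10 it was 1.05. Art3, whose exons it overlaps, had means of 19.2 normalized counts in Ctr, 17.5 in LD and 13.0 in HD mice. Its part in the Cxcl10 values was not tested.

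Cxcl16, the transmembrane CXC member, had 13.5, 61.2, 14.8, 13.7 and 46.7 normalized counts in HD mice 1 to 5. In Ctr mice it had 7.24, 5.10, 19.8, 9.01 and 20.5, so that HD mice 1, 3 and 4 lay inside the Ctr range. The difference was 1.09 (SE 0.45, p = 0.0235, limma adjusted p = 0.489), and the exact permutation p was 0.103. Zmynd15, which overlaps it on the other strand, had means of 8.37, 8.43 and 15.5 normalized counts in Ctr, LD and HD mice. Its part in the Cxcl16 values was not tested.

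**Figure D1:**
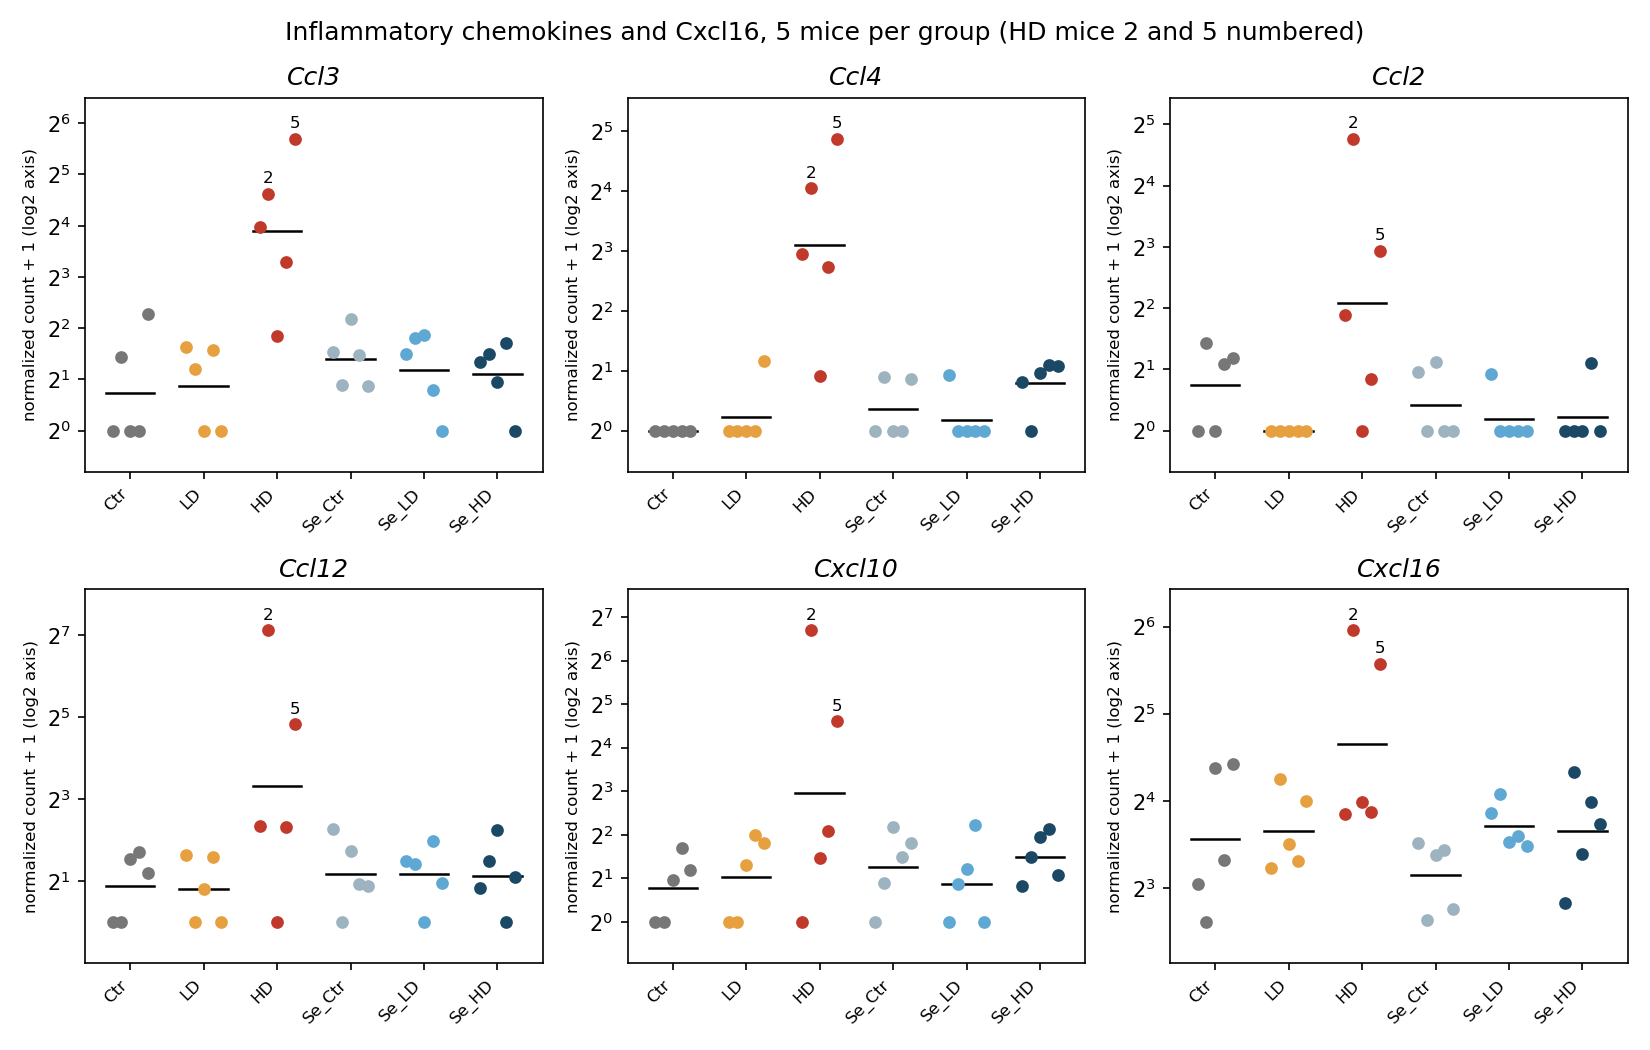
Normalized count + 1 of 6 chemokines in each of the 30 mice, on a log2 axis, by group. Points are mice, bars are means of the log2 values, and HD mice 2 and 5 are numbered; these 2 mice hold the highest values in all 6 panels.

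The HD mice did not contribute evenly. HD mice 2 and 5 held the highest pair of values for all 6 of these genes, with mouse 2 on top for Ccl2, Ccl12, Cxcl10 and Cxcl16 and mouse 5 on top for Ccl3 and Ccl4. Together they held 96.2% of the summed HD normalized counts of Cxcl10, 95.4% of Ccl12, 90.4% of Ccl2, 76.8% of Ccl4, 73.9% of Ccl3 and 72.0% of Cxcl16. Mouse 2 exceeded mouse 5 by 5.05-fold for Ccl12, 4.41-fold for Cxcl10 and 3.92-fold for Ccl2, but had 0.466 of its Ccl3 and 0.547 of its Ccl4. The 2 mice thus differed in which chemokines were highest. In HD mice 1, 3 and 4 the mean of Ccl3 was 8.75 normalized counts against 1.11 in Ctr, and that of Ccl4 was 4.41 against 0. The mean of Cxcl16 in the same 3 mice was 14.0 against 12.3 in Ctr, that of Ccl12 2.69 against 1.08, that of Cxcl10 1.65 against 0.895 and that of Ccl2 1.17 against 0.821.

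Without HD mice 2 and 5, a setting chosen after seeing the data, 2 of the 8 members tested were called by limma, where 3.09% of all genes were called and Ccl2 was not tested, Ccl3 with a difference of 2.30 (limma adjusted p = 0.558) and Ccl4 with 2.19 (adjusted p = 0.445), where the unadjusted values were 0.00258 and 0.00100. Leaving out HD mouse 2 alone or HD mouse 5 alone also left these 2 calls. Ccl12, Cxcl10 and Cxcl16 lost their call when either mouse was left out. They differed by 1.49, 1.26 and 0.77 without HD mouse 2, by 2.06, 1.79 and 0.86 without HD mouse 5 and by 0.67, 0.41 and 0.35 without both. Cxcl16 also lost its call without Ctr mouse 1, 2 or 4, and Cxcl10 without Ctr mouse 1, 2 or 3, whereas Ccl12 kept its call without any single Ctr mouse. Ccl3 was called in each of the 21 settings that tested it, and so was Ccl4, which its HD reads alone brought into the test, with limma, edgeR and DESeq2 adjusted p-values from 0.00248 to 0.558 for Ccl3 and from 0.000225 to 0.445 for Ccl4, which DESeq2 gave no adjusted p.

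**Figure D2:**
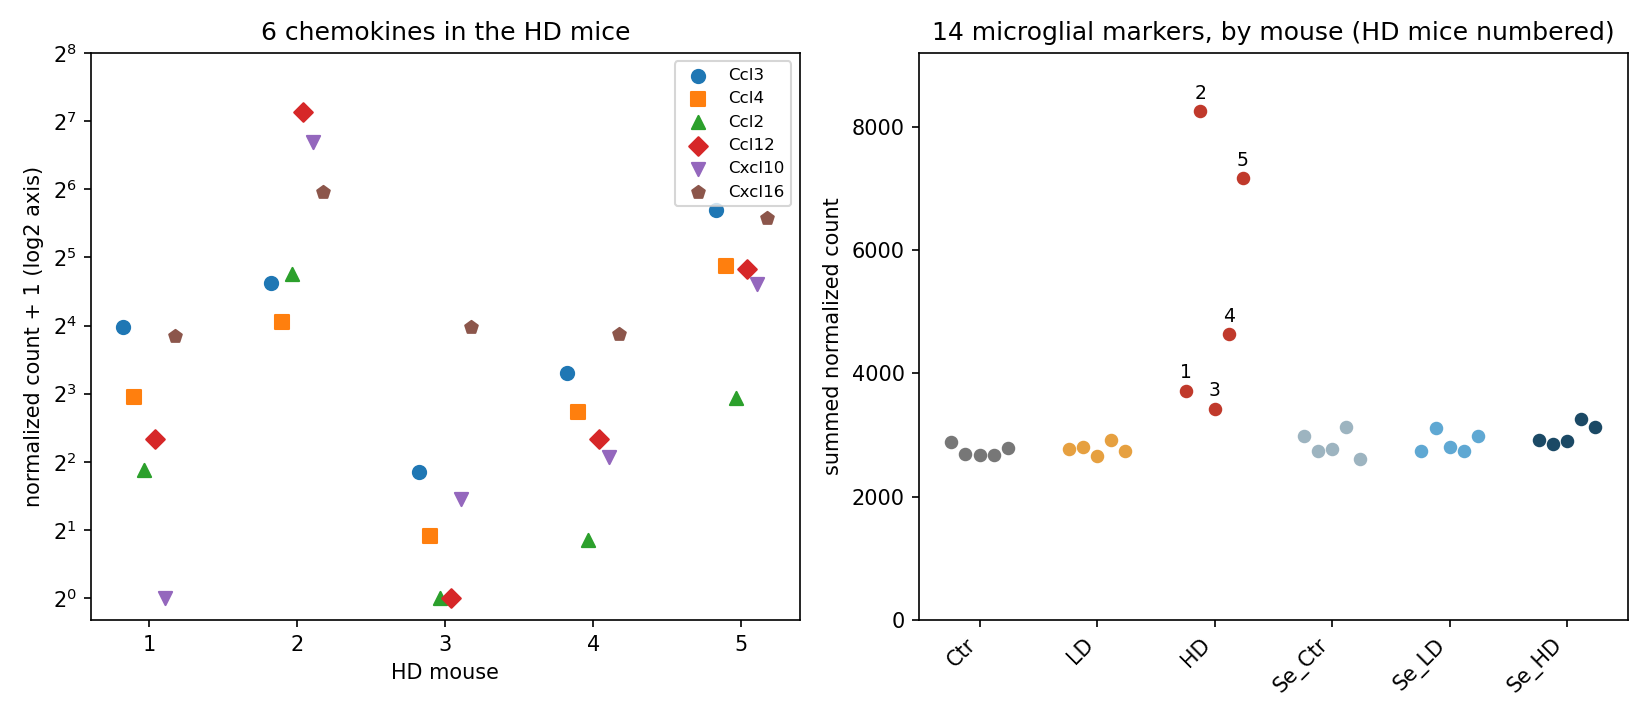
Left, the 6 chemokines in each HD mouse as normalized count + 1 on a log2 axis; right, the summed normalized count of 14 microglial markers in every mouse, by group. Mice 2 and 5 are the highest HD mice in both panels, with marker sums of 8259 and 7164.

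Most microglial and some astrocyte markers were also called higher in HD mice. Of 14 microglial markers 12 were called higher in HD mice, 5 of them at an adjusted p under 0.05 (limma), beside 3.36% and 0.130% of all genes, among them Tyrobp, which rose by 1.71 (SE 0.26, adjusted p = 0.00903). Their summed level was between 2670 and 2886 normalized counts in Ctr mice and between 3427 and 8259 in HD mice, where it was 3716, 8259, 3427, 4632 and 7164 in mice 1 to 5. Each HD mouse lay above every Ctr mouse, and mice 2 and 5 were highest. Of 8 astrocyte markers 3 were called higher, Gfap by 2.39 (SE 0.35, limma adjusted p = 0.00716), and their sum was between 49157 and 58606 in Ctr and between 59423 and 91900 in HD mice. Of 6 markers of border macrophages 1 was called higher. In bulk tissue more cells of a type and more RNA per cell cannot be told apart, and the part of these markers in the chemokine values was not tested.

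Markers of blood leukocytes were close to the detection limit. Of 10 such markers 5 had no row in the table, among them the T cell gene Cd3e, the B cell gene Ms4a1 and the neutrophil gene Ly6g, and none of the 3 that were tested was called in HD mice. The summed level of the 5 with a row was between 20.5 and 35.0 normalized counts in Ctr and between 21.8 and 57.9 in HD mice. Of 9 endothelial and 10 mural or fibroblast markers none was called, beside 5.09% of all genes. Of 10 inhibitory neuron markers 2 were called lower, where 346 of all 20031 genes were. No marker of excitatory neurons, oligodendrocytes or choroid plexus was called. All 8 choroid plexus markers had a higher mean log2 level in HD than in Ctr mice, with a median difference of 1.38 and sums from 845 to 31207 normalized counts in Ctr mice, and their part in the chemokine values was not tested. HD mouse 2 had the lowest sum of excitatory neuron markers (30834 normalized counts, against 46262 to 51137 in the other HD mice) and of oligodendrocyte markers (27012) of all 30 mice, and their part in its chemokine values was not tested. When HD mice 2 and 5 were left out, where 3.09% of all genes were called and 1.66% called higher, 8 microglial markers, 1 astrocyte marker (Gfap), 2 choroid plexus markers and 1 excitatory neuron marker were called higher, and 1 inhibitory neuron marker and 1 erythrocyte marker lower.

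The constitutive chemokines, which neurons, vessels and meninges are known to make without a stimulus, were not called in HD mice. Cx3cl1, the neuronal chemokine, had 3233, 2178, 3121, 2969 and 2936 normalized counts in HD mice 1 to 5, against 3517, 2607, 3794, 2977 and 3470 in Ctr mice. HD mouse 2 was the lowest of all 30 mice and the others lay within the Ctr range. The difference was -0.18 (SE 0.12, 95% interval from -0.43 to 0.070, limma adjusted p = 0.758), so a decrease of more than 0.43 on the log2 scale was outside the interval.

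Cxcl12 had 818, 286, 621, 658 and 518 normalized counts in HD mice 1 to 5, against 549 to 738 in Ctr and 535 to 749 in LD mice. Its highest and its lowest value over the 30 mice were both in the HD group, in mouse 1 and mouse 2. The difference was -0.25 (SE 0.19, 95% interval from -0.64 to 0.15, limma adjusted p = 0.796), and it was 0.093 without HD mice 2 and 5. Cxcl14, a CXC member whose receptor is not settled, had 281 to 423 normalized counts in HD mice and 281 to 479 in Ctr mice. The groups overlapped almost fully, with a difference of -0.037 (SE 0.14, 95% interval from -0.32 to 0.25, limma adjusted p = 0.968).

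**Figure D3:**
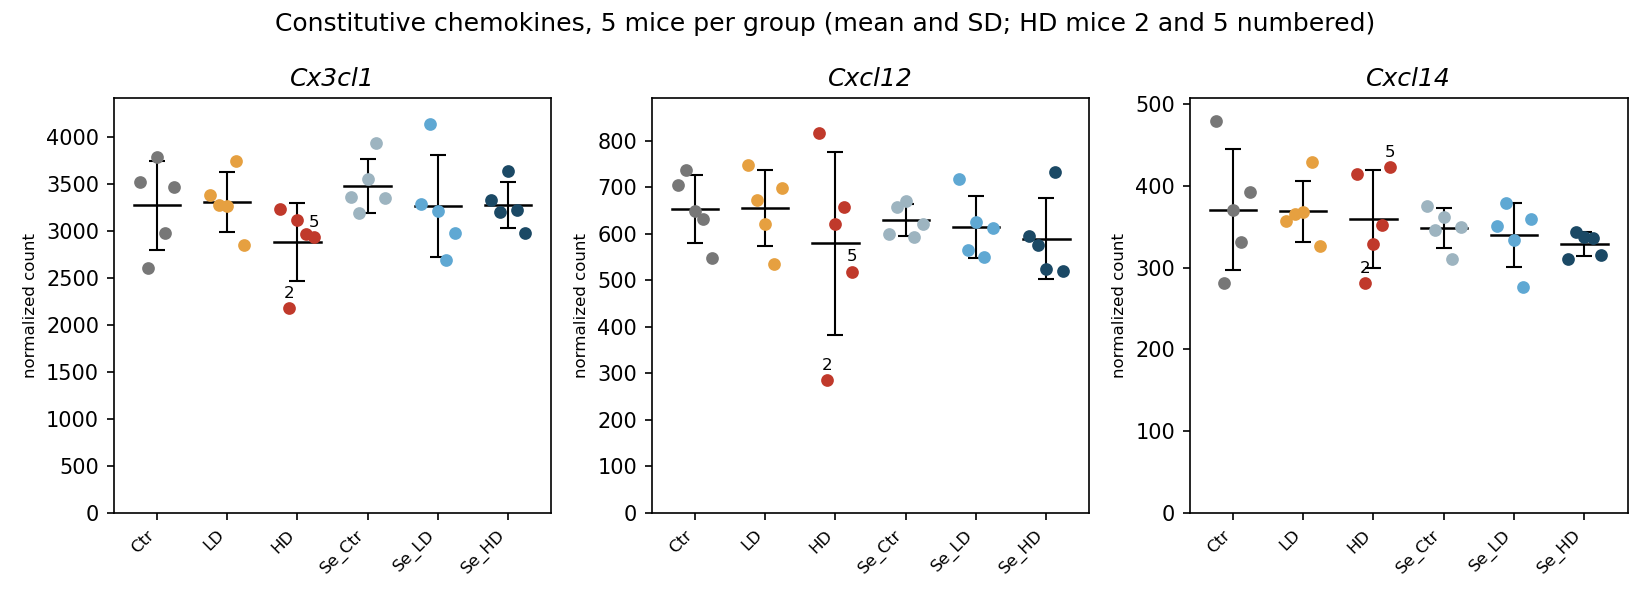
Normalized counts of Cx3cl1, Cxcl12 and Cxcl14 in the 30 mice, by group, with the mean and SD (n = 5 mice per group). HD mouse 2 has the lowest Cx3cl1 (2178) and Cxcl12 (286) of all mice, and HD mouse 1 has the highest Cxcl12 (818).

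The low dose gave no call among the members. In LD against Ctr mice 0 of the 9 members were called by limma, none had an unadjusted contrast p under 0.05, and edgeR and DESeq2 called 0 as well, beside 1.46% of all genes. The differences were between -0.74 for Ccl2 and 0.25 for Cxcl10, and the 95% intervals of the abundant genes reached from -0.23 to 0.27 for Cx3cl1, from -0.27 to 0.29 for Cxcl14 and from -0.39 to 0.39 for Cxcl12. For the genes with few reads the intervals were wide, for example from -1.17 to 1.45 for Ccl3, and they rest on few reads and on a spread estimated together with the HD mice. In HD against LD mice 6 of the 9 members were called, all higher in HD, where 4.49% of all genes were called and 3.04% called higher. Ccl2 and Ccl4 are among the 6 and were tested only through their HD reads, so that 4 of the 6 are free of this. The 6 were Ccl3 (3.01, SE 0.63), Ccl4 (2.87, SE 0.56), Ccl12 (2.52, SE 0.88), Ccl2 (2.09, SE 0.65), Cxcl10 (1.95, SE 0.88) and Cxcl16 (0.99, SE 0.45). None passed an adjusted p under 0.05 by limma, with 0.0602 for Ccl4 and 0.0795 for Ccl3. The exact permutation p was 0.00794 for Ccl3, 0.0159 for Ccl4 and 0.0476 for Ccl2. It was 0.0952 for Ccl12 and for Cxcl16 and 0.175 for Cxcl10, so these 3 did not pass 0.05. For Ccl3 the lowest HD mouse had 3 reads and the highest LD mice had 2 reads, so nothing is read from their order. This comparison shares the HD mice with the one against Ctr.

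On the selenium diet the same members showed no call at the high dose. In Se_HD against Se_Ctr mice 0 of the 7 members tested were called by limma, edgeR or DESeq2, where 2.06% of all 19679 genes were, and none had an unadjusted contrast p under 0.05. Ccl2 and Ccl4 were not tested there because they had too few reads, 4 and 7 over the 15 selenium libraries. In Se_HD mice 1 to 5 Ccl3 had 1.52, 1.82, 0.944, 2.28 and 0 normalized counts, against 1.90, 0.864, 3.52, 1.79 and 0.827 in Se_Ctr mice. Ccl4 had 0.762, 0, 0.944, 1.14 and 1.12 in Se_HD mice and was at or under 0.864 in Se_Ctr mice. Ccl12 reached at most 3.78, Cxcl10 3.41, Ccl2 1.14 and Cxcl16 19.1 in Se_HD mice. No Se_HD mouse thus came near HD mice 2 and 5 in any of the 6 genes.

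Cxcl16 had the largest difference of the tested members in this comparison, 0.51 (SE 0.29, 95% interval from -0.11 to 1.12), and the exact permutation p was 0.143. The difference of Ccl3 was -0.29 (95% interval from -1.21 to 0.62), which leaves the 3.15 seen without selenium outside the interval. Those of Cx3cl1, Cxcl12 and Cxcl14 were -0.088, -0.10 and -0.084, each with an SE between 0.082 and 0.092. In Se_LD against Se_Ctr mice 0 of 7 members were called by limma, edgeR or DESeq2 (1.46% of all genes), with no unadjusted contrast p under 0.05. Cxcl16 was again the highest, at 0.56 (p = 0.0689, SE 0.29), with values from 10.2 to 15.9 in Se_LD and from 5.19 to 10.4 normalized counts in Se_Ctr mice (exact permutation p = 0.0159).

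The difference between the diets was itself tested, as the HD effect with selenium minus the HD effect without it, over all 30 libraries. It was below 0 with an unadjusted p under 0.05 for 4 of the 9 members, where 4.77% of all 21383 genes passed in either direction and 2.96% in this one. Ccl2 and Ccl4, which are 2 of the 4, had sums of 8.27 and 7.81 normalized counts outside HD and were again tested only through their HD reads. The limma values were -3.44 for Ccl3 (SE 0.78, adjusted p = 0.181), -2.66 for Ccl4 (SE 0.64, adjusted p = 0.282), -2.47 for Ccl12 (SE 1.07, adjusted p = 0.997) and -1.54 for Ccl2 (SE 0.75, adjusted p = 0.997). The unadjusted p-values were 0.000108, 0.000219, 0.0279 and 0.0471, and none passed the correction. Ccl3 and Ccl4 kept p under 0.05 without HD mice 2 and 5 (0.00186 and 0.00419), while Ccl12 and Ccl2 did not (0.391 and 0.535), where 4.35% of all genes did. In the same limma fit Cxcl10 differed by -1.97 (SE 1.06) and Cxcl16 by -0.59 (SE 0.56), with unadjusted p-values of 0.0719 and 0.299. On whole reads Cxcl10 passed an unadjusted p under 0.05 with edgeR (-4.46) and DESeq2 (-4.61), and Ccl2 did not (-3.80 and -3.78). For the abundant genes the differences were 0.094 for Cx3cl1, 0.14 for Cxcl12 and -0.047 for Cxcl14, none with a p under 0.05.

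**Figure D4:**
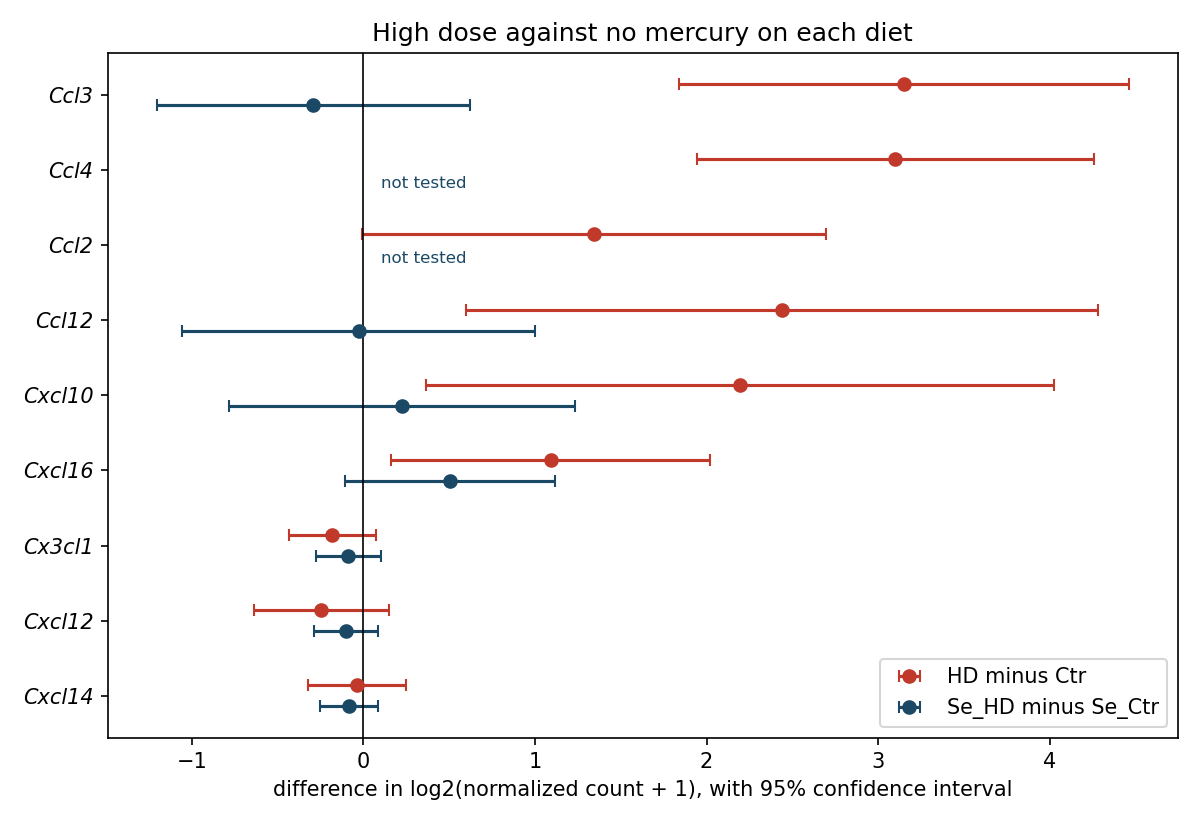
Difference between high dose and no mercury for each chemokine, in log2(normalized count + 1), with 95% confidence intervals from limma, without selenium (HD minus Ctr, red) and with selenium (Se_HD minus Se_Ctr, blue). The intervals of Ccl3 do not overlap (1.84 to 4.46 against -1.21 to 0.62), and Ccl4 and Ccl2 were not tested on the selenium diet.

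Compared directly by limma, 5 of the 9 members were lower in Se_HD than in HD mice at an unadjusted p under 0.05. They were Ccl3, Ccl4, Ccl2, Ccl12 and Cxcl16. Of all genes 8.38% passed this threshold, and 5.28% passed it and were lower. Ccl3 fell by 2.79 (SE 0.55) and Ccl4 by 2.31 (SE 0.45), each with an adjusted p of 0.0160 by limma, a threshold that 0.327% of all genes passed. Ccl4 and Ccl2 entered this fit too only through their HD reads. The exact permutation p was under 0.05 for Ccl3 (0.0079) and Ccl4 (0.032) only. For Ccl2, Ccl12 and Cxcl16 it was 0.0873, 0.119 and 0.103. Without HD mice 2 and 5 Ccl3 fell by 1.95 and Ccl4 fell by 1.40 (limma adjusted p = 0.601 for both, unadjusted 0.00202 and 0.00266), and Ccl2, Ccl12 and Cxcl16 no longer passed the unadjusted threshold, where 6.86% of all genes passed it. The direction of Cxcl12 turned from 0.094 with all mice to -0.25 without these 2 (unadjusted 0.0441), and that of Cxcl10 from -1.47 to 0.32 (unadjusted 0.594). All 5 HD mice were above all 5 Se_HD mice for Ccl3, as for 0.903% of all genes, whereas Ccl4 of HD mouse 3 (0.872) lay inside the Se_HD range. The microglial marker sum was between 2858 and 3258 in Se_HD mice, below every HD mouse, and its part in this difference was not tested. This comparison again uses the HD mice. Selenium without mercury gave no call, with 0 of 9 members in Se_Ctr against Ctr mice (4.00% of all genes) by limma. At the low mercury dose 0 of 9 were called in Se_LD against LD mice (2.86%). None of these 18 values had an unadjusted p under 0.05, and edgeR and DESeq2 called 0 members in the former comparison.

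Among chemokine receptors 4 of 17 tested were called higher in HD mice and 0 lower, with a median difference of 0.16, beside 3.36% of all genes called higher. Without HD mice 2 and 5 there were 2 of 16, beside 1.66% of all genes called higher, Cx3cr1 (0.46) and Cxcr4 (0.89). Cx3cr1, the microglial receptor of Cx3cl1, had a mean of 910 ± 222 normalized counts in HD against 555 ± 62.8 in Ctr mice (SD, n = 5 each), a difference of 0.68 (SE 0.15, limma adjusted p = 0.0860). Cxcr4, the receptor of Cxcl12, had 58.3 ± 18.8 against 32.8 ± 11.8, a difference of 0.81 (SE 0.26, limma adjusted p = 0.273). Ccr6, which has no ligand among the members, had 30.4 ± 14.7 against 12.3 ± 7.29.

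Ackr3, which binds Cxcl12 without G protein signalling, differed by 0.13 (SE 0.18). The receptors Ccr1 and Ccr2 had means of 6.89 ± 8.72 and 7.53 ± 8.17 normalized counts in HD mice against 4.25 ± 3.19 and 4.34 ± 1.02 in Ctr mice, and were not called. Cxcr3 and Cxcr6, the receptors of Cxcl10 and Cxcl16, had no row in the table. In Se_HD against Se_Ctr mice 2 of 17 receptors were called, both higher, Ccr2 (8.09 ± 2.80 against 3.38 ± 2.46 normalized counts) and Gpr182 (36.8 ± 13.8 against 18.1 ± 3.15), beside the 2.06% of all genes. In Se_HD mice Cx3cr1 had 541 ± 42.8 and Cxcr4 37.4 ± 11.0 normalized counts. In the test of the difference between diets 3 of 18 receptors had a p under 0.05, all below 0, beside 2.96% of all genes below 0.

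Chemokine genes outside the members were mostly at low levels, and 3 of 14 tested were called, beside 5.09% of all genes. They are named here because they are few, after their values were seen. Ccl9, a CC chemokine of myeloid cells, had 17.9 ± 10.5 normalized counts in HD against 3.98 ± 2.26 in Ctr mice, a difference of 1.80 (SE 0.45, limma adjusted p = 0.133). Cxcl1, a neutrophil attractant, had 2.41 ± 1.76 against 0.225 ± 0.504, from 12 reads in HD and 1 in Ctr. Its HD reads counted toward the sum of 10 needed to enter the test, so its call may not be independent of the filter. Ccl27a was the only one lower, with 54.4 ± 16.9 against 98.7 ± 42.9 (fell by 0.80, SE 0.26), with an unadjusted limma p of 0.00572 that did not pass the correction. The median difference over the 14 genes was 0.41. Without HD mice 2 and 5 the only call among the 13 tested was Cxcl1, beside 3.09% of all genes, and the same limit applies to it there.

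Of 12 genes for proteases, G proteins, kinases and arrestins that cut chemokines or carry their signal, 1 was called, beside 5.09% of all genes, and the median difference was -0.071, so that the list gave no more than a call near the background. The gene was Dpp4, a protease that trims chemokine N-termini, with 11.9 ± 7.05 normalized counts in HD against 23.7 ± 7.74 in Ctr mice (fell by 1.01, SE 0.34, limma adjusted p = 0.307), and without HD mice 2 and 5 it was again the only call of the 12, at -1.29. The sheddases Adam10 and Adam17, which release Cx3cl1 and Cxcl16 from the membrane, differed by 0.044 (SE 0.10) and 0.24 (SE 0.18) and were not called. Adam10 had 1408 ± 151 normalized counts in HD and 1360 ± 48.0 in Ctr mice.

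Cytokines and transcription factors that are known to induce chemokine genes were called higher in 4 of 16 tested, with a median difference of 0.31, and in 3 of 15 without HD mice 2 and 5, where Il1a was not called, beside 3.36% and 1.66% of all genes. Irf8, a myeloid interferon regulatory factor, had 62.1 ± 28.8 normalized counts in HD against 25.9 ± 4.01 in Ctr mice, a difference of 1.13 (SE 0.25, limma adjusted p = 0.0860). Stat3, which also acts in reactive astrocytes, had 899 ± 550 against 482 ± 45.5, a difference of 0.74 (SE 0.21). Without HD mice 2 and 5 the differences were smaller, 0.37 for Stat3 and 0.70 for Irf8. The cytokine genes Il1b and Il1a, named after their values were seen, had 7.92 ± 5.99 against 0.936 ± 1.49 and 14.4 ± 6.13 against 5.74 ± 2.47. Il1b was also called higher in LD against Ctr mice, by 1.30 (SE 0.49, limma adjusted p = 0.999), with 2.94 ± 0.635 normalized counts in LD mice. The NF-kappa B genes Nfkb1, Nfkb2, Rela and Relb differed by -0.0059, 0.48, 0.082 and -0.065 and the inhibitor gene Nfkbia by 0.32, without a call. Tnf had no read in Ctr mice and 0 to 8.98 normalized counts in HD mice, and was not called.

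The region upstream of the start was examined for the members that moved with the high dose. RefSeq promoter sequences (build GRCm38.p6, a later build than that of the counts) were given for 6 of the 9 members, and of the genes called these were Ccl3, Ccl12 and Cxcl10. The 250 bases before the start are printed 5′ to 3′ on the gene's strand, from chr11:83649379-83649628 (minus strand) for Ccl3, chr11:82101595-82101844 (plus strand) for Ccl12 and chr5:92348890-92349139 (minus strand) for Cxcl10. Capitals mark matches, on either strand, to the kappa B site of NF-kappa B or to GAAANNGAA, the core of the element bound by interferon regulatory factors.
Ccl3: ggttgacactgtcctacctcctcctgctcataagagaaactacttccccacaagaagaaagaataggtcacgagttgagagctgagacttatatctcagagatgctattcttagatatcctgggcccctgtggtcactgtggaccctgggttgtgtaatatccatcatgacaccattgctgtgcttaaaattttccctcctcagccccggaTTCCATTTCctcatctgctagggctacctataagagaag
Ccl12: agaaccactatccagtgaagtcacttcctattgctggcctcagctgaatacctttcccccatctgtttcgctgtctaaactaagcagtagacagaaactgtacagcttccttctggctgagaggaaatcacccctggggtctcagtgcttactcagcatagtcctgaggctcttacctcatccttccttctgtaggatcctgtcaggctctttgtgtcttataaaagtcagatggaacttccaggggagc
Cxcl10: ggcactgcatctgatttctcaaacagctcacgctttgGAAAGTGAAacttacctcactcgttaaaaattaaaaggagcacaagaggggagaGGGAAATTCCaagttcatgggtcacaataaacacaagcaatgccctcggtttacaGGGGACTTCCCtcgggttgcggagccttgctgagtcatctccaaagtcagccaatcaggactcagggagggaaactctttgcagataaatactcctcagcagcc

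Cxcl10 held both kinds of match, GAAANNGAA from 213 to 205 bases before the start and 3 kappa B matches, from 159 to 150, from 104 to 95 and from 103 to 94 bases before it, of which the latter pair overlap. Ccl3 held 1 match to GAAANNGAA on the reverse strand, from 39 to 31 bases before the start, and Ccl12 none of either. Of 32817 mouse promoters of this length 7.25% held a kappa B match, 7.12% a GAAANNGAA match and 0.360% both. Among the uncalled members with a sequence, Cxcl14 held 1 GAAANNGAA match and Cxcl12 and Cx3cl1 none. A match of letters is a description of the sequence and says nothing of binding in these mice.

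For the 4 members that averaged 10 or more normalized counts, the genes that varied most like them from mouse to mouse were found among 14276 genes by Pearson's r of log2(normalized count + 1) after each group's mean was removed, over the 30 libraries. For Cx3cl1 these were Cacnb1 (r = 0.871), Sec14l2 (0.868) and Itpka (0.866), and over the 25 libraries without HD the values were 0.843, 0.871 and 0.843. For Cxcl14 they were Ube2m (0.894), Gm5151 (0.893) and Lrrc68 (0.885), with 0.866, 0.867 and 0.880 without HD. For these 2 genes the likeness was thus similar with and without the HD libraries. For Cxcl12 they were Flt3 (0.769), Asrgl1 (0.753) and Egfem1 (0.751), and the values without HD were lower, 0.366 for Flt3 and 0.288 for Asrgl1. For Cxcl16 they were Gatm (0.771), Prex1 (0.762) and Atp1b2, with 0.605, 0.549 and 0.437 without HD. These values describe libraries that share depth and tissue composition, and no test was made of them.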

How the data were processed

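RNA from 30 hippocampi was sequenced by the authors as stranded single-end libraries. Per the labels and the study's methods, reads were trimmed with Trim Galore 0.4.2, mapped with HISAT2 to NCBIM37 and counted per gene with featureCounts. The deposited values are a signal that the authors made by dividing reads by DESeq2's size factors, after leaving out genes with few reads. Whole reads were recovered for 100% of values (tolerance 0.1 read).

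The log2 of the normalized count plus 1 was fitted across all genes with limma 3.58.1 (R 4.3.3) with a variance trend, over Ctr, LD and HD (20031 genes), over the selenium groups (19679 genes) and over all 30 libraries (21383 genes). The p-values were adjusted by Benjamini-Hochberg. Single members were also compared by exact permutation (scipy 1.17.1). Other settings tried were pseudocounts (0.1, 10), filters (none, or a mean of 10 or more normalized counts), quantile normalization, limma without trend, all libraries fitted together, a covariate for each run of 6 library numbers, the recovered reads in edgeR 4.0.16 and in DESeq2 1.42.0, each mouse left out and, added after seeing the data, HD mice 2 and 5 left out. The code was tested on simulated data. The members and lists were chosen with earlier results of these data known. Beside the members, the text names most receptors of the members, Adam10, Adam17 and up to 4 genes per list by lowest p in HD against Ctr among those averaging 10 or more normalized counts, apart from genes said to be named after their values were seen and the examples without a call. Symbols were found for 21326 of 21412 identifiers, and some list genes were matched by older symbols. Some items are not reported here.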

Additional observations from a re-analysis of the deposited data

Results flagged for a closer look

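For each member the spread of the 5 mice was examined within each of the 6 groups, which makes 54 sets of 5 values, and in 8 of them the highest or lowest mouse lay farther from the next mouse than 0.71 of the group's range (Dixon's limit). Chance gives such a gap in about 1 in 20 groups of normally distributed values. Sets with few reads need not follow that rate, and Ccl2 in LD and Ccl4 in Ctr mice had no read and so no gap. No excess is therefore read from the 8. In the HD group mouse 2 was far above the others for Ccl12 (gap 0.802 of the range), Cxcl10 (0.773) and Ccl2 (0.745), and far below the others for Cx3cl1 (0.719). In the other 4 sets the gap was 1 of the range because a single mouse had a read and the other 4 had none: Ccl2 in Se_LD mouse 1 and in Se_HD mouse 4, and Ccl4 in LD mouse 5 and in Se_LD mouse 1. The effect of the high dose differed between the diets at an unadjusted p under 0.05 for Ccl3 (-3.44), Ccl4 (-2.66), Ccl12 (-2.47) and Ccl2 (-1.54), as the log2 difference with selenium minus that without, and none of these passed the limma correction over 21383 genes.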

How the results depend on the processing

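The count of called members depended on the processing. In HD against Ctr it was 5 in the reported fit, 2 with a pseudocount of 0.1, 3 with limma without a trend, 1 when genes had to average 10 or more normalized counts, under which fewer members were tested, 2 without HD mice 2 and 5, and from 2 to 6 when each mouse was left out, with 2 without HD mouse 2 or 5 and 3 without Ctr mouse 1. It was 6, with Ccl2 added, with a pseudocount of 10, no filter, edgeR, DESeq2 or all 30 libraries, and 4 with quantile normalization. Ccl3 was called in every setting that tested it, and so was Ccl4, which was tested only through its HD reads. Between diets Ccl2 lost its call with edgeR, DESeq2, quantile normalization and limma without a trend, and Cxcl10 gained one with edgeR, DESeq2 and a pseudocount of 10. In HD against LD the 6 calls became 3 with a pseudocount of 0.1, 1 under that filter, 2 without HD mice 2 and 5, and 2 to 6 when each mouse was left out (2 without HD mouse 2, 3 without HD mouse 5). For the difference between diets the 4 became 2, 0 and 2 under these settings and 2 to 5 when each mouse was left out, with 2 without HD mouse 2, HD mouse 5 or Ctr mouse 1. In Se_HD against Se_Ctr the count of 0 ranged from 0 to 1 when each mouse was left out, the 1 being Cxcl16 without Se_HD mouse 1. The cause was not tested where none is given.

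Of the comparisons listed here, the values that changed sign were uncalled in the reported fit. In HD against Ctr Cxcl14 ranged from -0.13 to 0.061 over mice left out, and Cxcl12 was 0.093 without HD mice 2 and 5. In LD against Ctr the ranges were -0.050 to 0.52 (Ccl3), -0.30 to 0.12 (Ccl12), -0.061 to 0.071 (Cxcl12), -0.083 to 0.11 (Cxcl14), -0.14 to 0.32 (Cxcl16) and -0.057 to 0.078 (Cx3cl1), with -0.0068 and -0.0083 for Cxcl14 and -0.094 and -0.068 for Cxcl16 by edgeR and DESeq2 and -0.0063 for Cx3cl1 by quantile normalization. In Se_HD against Se_Ctr they were -0.32 to 0.25 (Ccl12; 0.023 by edgeR) and -0.093 to 0.45 (Cxcl10), and in Se_LD against Se_Ctr -0.37 to 0.098 (Ccl3), -0.28 to 0.30 (Ccl12; -0.0086 with a pseudocount of 10) and -0.085 to 0.029 (Cxcl14). For the difference between diets they were -0.090 to 0.29 (Cxcl12), -0.15 to 0.047 (Cxcl14) and -0.0047 to 0.17 (Cx3cl1), and without HD mice 2 and 5 -0.20 (Cxcl12), 0.16 (Cxcl16) and -0.025 (Cx3cl1). Few reads limit Ccl2, Ccl3, Ccl4, Ccl12 and Cxcl10, which outside HD rest on 7 to 37 reads each. The labels give no replicate numbers by which mice could be paired. Each run of 6 library numbers in the labels holds 1 mouse of every group, and with these runs as blocks the counts of called members were as reported, 5 in HD against Ctr, 6 in HD against LD, 4 between diets and 0 in the other comparisons.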
